A study of Mus musculus with 12 samples.

Results

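The 35 genes described here are mouse genes known to be imprinted, 14 of them expressed mainly from the maternal and 21 mainly from the paternal chromosome. They were chosen by symbol from a list of known imprinted genes. The rule names no measured value, but the choice was made with earlier results of these data known, so it was not blind to them. All 35 were found among the 55228 genes listed in both count tables. RNA had been sequenced from mesenchyme, the connective tissue under the epithelium, of the bladder and of the urethra of CD-1 mouse embryos. There were 4 groups of 3 libraries: bladder mesenchyme at E18.5, bladder mesenchyme at E14.5, urethral mesenchyme at E18.5 and urethral mesenchyme at E14.5, where E is embryonic day. Every embryo was wild type, female and untreated, each library held the pooled tissue of 1 litter, and 3 separate litters were used for each kind of sample. The bladder was the organ set against the urethra, and E18.5 the later stage set against E14.5. Each stage came from its own litters and its own deposited table, so stage and these sources cannot be told apart.

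Imprinted genes are transcribed mainly from the copy inherited from 1 parent, under the control of DNA methylation marks set in the egg or the sperm. Such a mark often silences the copy that carries it, as for Peg3, Mest and Snrpn, which are marked in the egg and expressed from the paternal copy. They lie mostly in clusters around a shared control region, where a long noncoding RNA from 1 parental chromosome often accompanies protein-coding genes from the other. Many act on fetal growth: paternally expressed genes such as Igf2 and Dlk1 tend to promote it, and maternally expressed genes such as Cdkn1c, Grb10, Igf2r and Phlda2 tend to restrain it. In this series the parental origin of the reads was not measured, so "maternally expressed" and "paternally expressed" are the list's assignments and every value is the sum of both alleles. Some assignments hold in part of the tissues only: Ube3a, a ubiquitin ligase, is imprinted mainly in neurons.

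The genes sat on 10 chromosomes, 15 of them on chromosome 7, in 6 clusters of 2 or more and 10 places with 1 gene each (coordinates are GRCm38, as the count tables give them). The Dlk1-Dio3 cluster held 6 genes at chr12:109452823-110281097, the Snrpn-Ube3a cluster 6 at chr7:59228750-62464510, the Kcnq1ot1 cluster 4 at chr7:143203458-143503150 and the Peg10 cluster 4 at chr6:4674350-5433022. The Peg3 cluster held 3 genes at chr7:6671269-6967219, and H19 and Igf2 lay together at chr7:142575529-142666816. The sequences below show regulatory stretches beside genes whose levels carry the results, from RefSeq on GRCm38.p6, in lower case with every CG dinucleotide, the site of DNA methylation, in capitals. The stretch between Peg3 and Usp29, both paternally expressed, is the whole gap between their starts, since the genes run in opposite directions from it. The others are the 120 bases just before the annotated start, on the gene's strand, of Dlk1, Nnat and Ndn, whose differences between stages or compartments are described further on.
Peg3-Usp29 gap, plus strand, chr7:6730420-6730582: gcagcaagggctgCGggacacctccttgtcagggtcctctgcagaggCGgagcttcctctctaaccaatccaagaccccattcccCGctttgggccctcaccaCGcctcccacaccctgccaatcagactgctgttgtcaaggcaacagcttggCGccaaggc
Dlk1, plus strand, chr12:109452703-109452822: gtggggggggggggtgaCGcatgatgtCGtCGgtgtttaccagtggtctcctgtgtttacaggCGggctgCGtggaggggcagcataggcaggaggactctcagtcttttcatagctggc
Nnat, plus strand, chr2:157559958-157560077: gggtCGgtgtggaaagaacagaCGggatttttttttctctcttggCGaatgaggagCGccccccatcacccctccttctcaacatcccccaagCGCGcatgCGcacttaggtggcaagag
Ndn, plus strand, chr7:62348157-62348276: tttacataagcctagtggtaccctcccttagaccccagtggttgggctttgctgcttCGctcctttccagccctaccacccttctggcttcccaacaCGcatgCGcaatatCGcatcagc
These stretches held 5, 5, 7 and 4 CG, in the order shown. Over windows of 300 bases around annotated starts, 44 windows of 28 of the genes had a median of 13.5 CG, against 7 over 32851 windows of all genes, and 65.9% against 43.5% held 10 or more. Methylation was not measured in these samples.

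Several of the genes also carry microRNAs. Those opposite Rtl1 are shown because they tie a maternally expressed transcript to its paternally expressed neighbour, and the others lie within H19 and Mest themselves. Rtl1, a paternally expressed gene derived from a retrotransposon, has 11 annotated mature microRNAs inside its exon on the opposite strand, made from the maternal chromosome, where they are known to direct cleavage of the Rtl1 transcript. H19 holds the miR-675 hairpin in an exon, and Mest holds miR-335 in an intron. Mature sequences are from RefSeq on GRCm38.p6, 5′ to 3′, with the seed, bases 2 to 8, in capitals, and the 7 shown have 7 different seeds.
miR-127-3p, opposite strand of Rtl1, chr12:109592888-109592909, plus strand: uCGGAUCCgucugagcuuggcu
miR-433-3p, opposite strand of Rtl1, chr12:109591781-109591802, plus strand: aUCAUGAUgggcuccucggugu
miR-434-3p, opposite strand of Rtl1, chr12:109594565-109594586, plus strand: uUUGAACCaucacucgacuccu
miR-136-5p, opposite strand of Rtl1, chr12:109595331-109595352, plus strand: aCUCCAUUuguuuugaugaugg
miR-675-5p, in H19, chr7:142577112-142577133, minus strand: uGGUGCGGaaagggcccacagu
miR-675-3p, in H19, chr7:142577078-142577099, minus strand: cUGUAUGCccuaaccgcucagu
miR-335-5p, in Mest, chr6:30741314-30741336, plus strand: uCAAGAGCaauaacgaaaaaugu
The libraries were made from poly(A)-selected RNA, so these mature microRNAs themselves were not measured.

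Library totals ranged from 21495169 to 36349777 counts, and levels are given as CPM, the usual depth-scaled counts, on the TMM-adjusted total, a scaling that evens out composition between libraries. The 7 mesenchyme markers (collagens, Vim, Pdgfra, Pdgfrb and Twist1 among them) had counts in every group. Markers of other cells were present as well: epithelium markers summed to 8654 to 11550 CPM in E18.5 bladder, 222 to 1438 CPM in E14.5 bladder, 3491 to 5221 CPM in E18.5 urethra and 837 to 1984 CPM in E14.5 urethra. Of the 15 epithelium markers, 15 were called higher at E18.5 in bladder and 8 in urethra, so the bladder stage changes below coincided with this shift, whose part was not tested. Neuron markers summed to 82.4 to 192 CPM in E18.5 bladder, 94.5 to 439 CPM in E14.5 bladder, 718 to 1893 CPM in E18.5 urethra and 668 to 1038 CPM in E14.5 urethra. In E14.5 urethra replicate 2 the noncoding RNAs Meg3, Rian, Mirg and Kcnq1ot1 were above both other replicates, and called differences of Meg3, Rian and Mirg that use it are given with and without it. Endothelium markers summed to 279 to 387 CPM in E18.5 bladder, 365 to 687 CPM in E14.5 bladder, 480 to 548 CPM in E18.5 urethra and 293 to 463 CPM in E14.5 urethra. In bulk tissue, fewer cells of a type and less RNA per cell cannot be told apart.

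Per length, H19 was the highest of the 35 genes in every group, with 1275 CPM per kb in E18.5 bladder, 1681 in E14.5 bladder, 932 in E18.5 urethra and 789 in E14.5 urethra. Cdkn1c came next in every group, with 212 CPM per kb in E18.5 bladder, 347 in E14.5 bladder, 379 in E18.5 urethra and 297 in E14.5 urethra. Dlk1 had the third rank in E18.5 bladder, with 204 CPM per kb, and rank 10 in E14.5 urethra, with 39.9. At the low end, 3 genes, Slc22a18, Magel2 and Dio3, stayed under 10 CPM in every group, and 11 exceeded 500 CPM in at least 1. All 35 passed the low-count filter and were tested.

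Together the 35 genes took 1.02% ± 0.003 of all counts in E18.5 bladder, 1.45% ± 0.025 in E14.5 bladder, 1.28% ± 0.11 in E18.5 urethra and 0.966% ± 0.014 in E14.5 urethra (SD, n = 3 each). The share was thus lower at the later stage in bladder and higher in urethra, and the stages did not overlap in either compartment. These are shares of raw totals, without the TMM scaling used for the levels. The TMM factors were 0.83 to 0.92 in E18.5 bladder and 0.97 to 1.12 in the other groups, so the shares are not on the scale of the CPM levels. Without H19 the shares were 0.75% in E18.5 bladder, 1.04% in E14.5 bladder, 1.03% in E18.5 urethra and 0.757% in E14.5 urethra. Paternally expressed genes held 0.307% ± 0.010 of counts in E18.5 bladder and 0.503% ± 0.025 in E14.5 bladder, and maternally expressed genes 0.716% ± 0.012 and 0.949% ± 0.018 in the same groups.

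The stage comparison asked how the genes changed in each compartment as development went on. In bladder at E18.5 against E14.5, 16 of the 35 were lower and 5 higher (adjusted p under 0.05, edgeR's quasi-likelihood test), where 22% of all 18805 genes tested were lower and 23.7% higher. The median log2 difference of the 35 was -0.40, against -0.02 over all genes. In urethra the count ran the other way, with 2 lower and 11 higher, where 10.8% of all genes were lower and 13.6% higher, and a median of 0.23 against -0.06. The 11 became 5 without E14.5 urethra replicate 3 and 6 without E18.5 urethra replicate 2, and the 2 became 1 without E14.5 urethra replicate 2 or any 1 E18.5 urethra library. The 16 that were lower in bladder were 11 of the 21 paternally expressed genes (52.4%) and 5 of the 14 maternally expressed ones (35.7%).

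**Figure D1:**
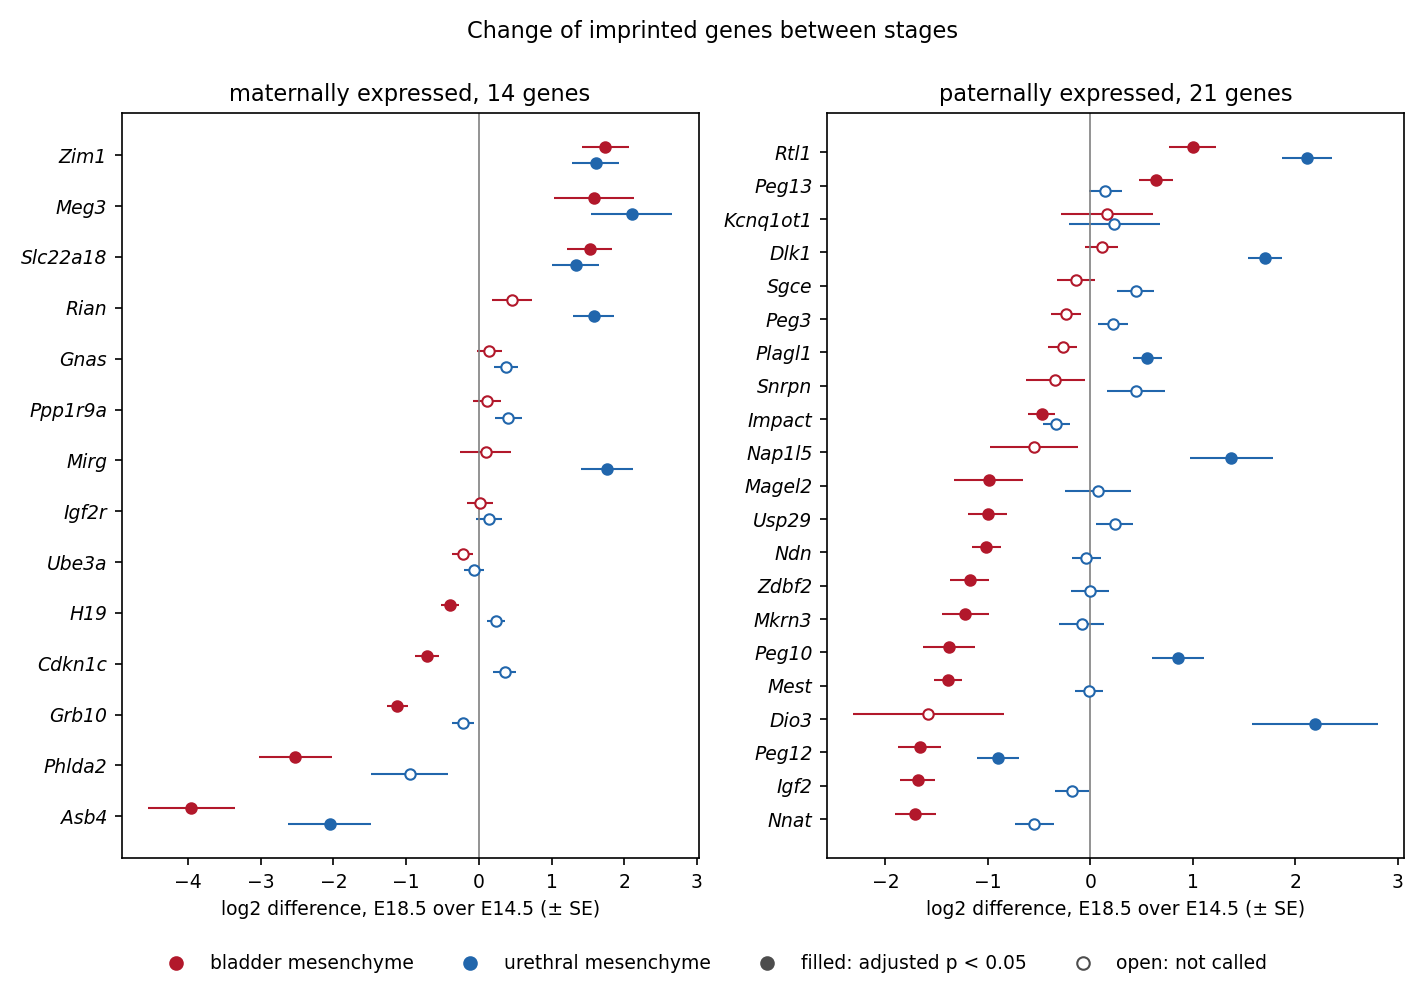
Log2 difference of E18.5 over E14.5 (± SE) for the 14 maternally and 21 paternally expressed genes, in bladder (red) and urethral (blue) mesenchyme, with filled points for adjusted p under 0.05. Most red points of the paternally expressed genes lie left of 0, with 11 called lower and 2 higher, while 13 of the 21 blue points lie right of 0 and 8 left of it, with 1 called lower and 6 higher.

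The difference of these stage changes, tested itself as an interaction (stage change in bladder minus stage change in urethra), was negative for 32 of the 35 genes, with a median of -0.98 against 0.02 over all genes. It was called lower for 14, where 4.03% of all genes were, and higher for 0, where 4.64% were. At an unadjusted p under 0.05 edgeR gave 24 lower and 0 higher, and DESeq2 called 19 lower and 0 higher. The 14 became 8 without E18.5 urethra replicate 2 and ranged up to 16 without E14.5 urethra replicate 2. Some marker lists had the same sign: the interaction was negative for 10 of 10 neuron markers (median -1.57, 1 called lower) and for 6 of 6 endothelium markers (median -0.99, 3 called lower), and positive for 15 of 15 epithelium markers (median 1.57, 2 called higher). Their part in the interaction of the imprinted genes was not tested. The 14 comprised 3 of the 14 maternally expressed genes (H19, Cdkn1c and Grb10) and 11 of the 21 paternally expressed ones.

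The compartment comparison asked which genes mark bladder as against urethral mesenchyme. At E18.5, 15 were lower and 7 higher in bladder than in urethra, where 16.2% of all genes were lower and 18.52% higher, with a median of -0.60 against 0.05. At E14.5, 5 were lower and 14 higher, where 12.5% were lower and 12.4% higher, with a median of 0.34 against 0.00 for all genes. The E18.5 genes lower in bladder were 13 of the 21 paternally expressed and 2 of the 14 maternally expressed ones. At E14.5, 6 maternally expressed genes were higher in bladder and 0 lower, also 0 at an unadjusted p under 0.05 by edgeR and 0 by DESeq2. Libraries of the same replicate number deviated together at E18.5, and with the replicate number as a block 9 genes were higher and 15 lower at that stage.

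**Figure D2:**
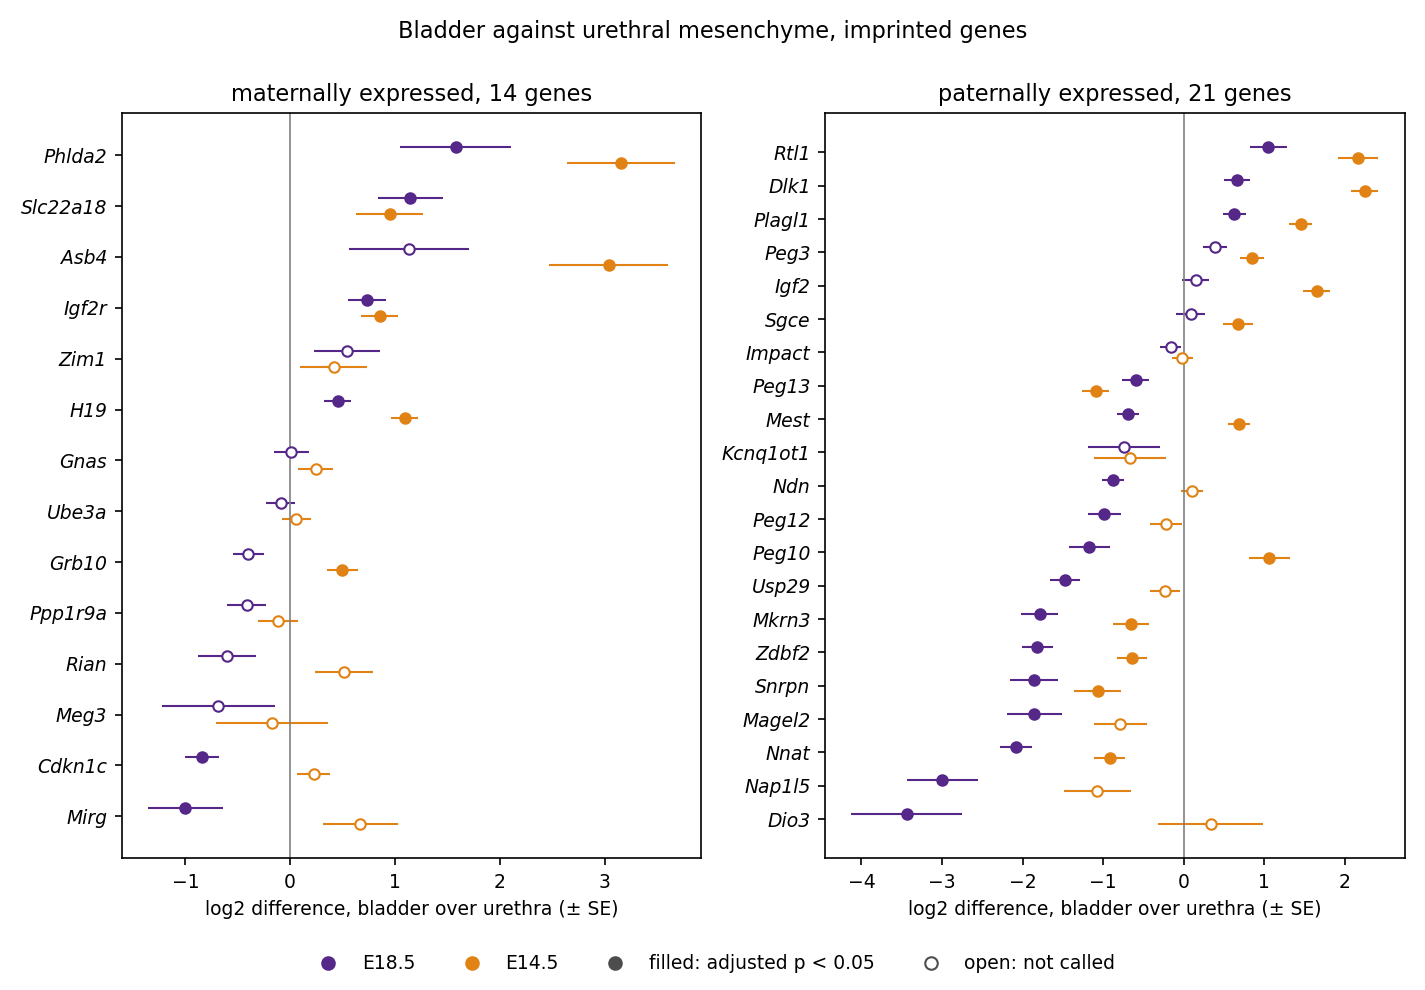
Log2 difference of bladder over urethra (± SE) for each gene at E18.5 (purple) and E14.5 (orange), with filled points for adjusted p under 0.05. Among the paternally expressed genes 13 are called lower in bladder at E18.5 and 5 at E14.5, and over both panels the purple point lies left of the orange one in 32 of the 35 rows.

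The 2 stage comparisons used no library in common. Meg3, Rtl1, Slc22a18 and Zim1 were higher at E18.5 in both compartments, 4 of the 5 called higher in bladder and 4 of the 11 in urethra, where 9.2% of all genes were higher in both. Asb4 and Peg12 were lower in both, where 8.22% of all genes were. Peg10 alone was called in opposite directions, lower in bladder and higher in urethra. Of all genes 0.447% were called in opposite directions, in either order. Between the compartment comparisons, Mest and Peg10 turned round, lower in bladder at E18.5 and higher at E14.5. There 0.729% of all genes were called in opposite directions, again in either order. Genes higher in bladder at both stages numbered 7, where 7.04% of all genes were: H19, Igf2r, Dlk1, Rtl1, Phlda2, Slc22a18 and Plagl1. The 5 lower in bladder at both stages, where 7.59% of all genes were, were all paternally expressed: Mkrn3, Snrpn, Nnat, Zdbf2 and Peg13. Without some 1 library, a compartment call was lost for H19, Phlda2 and Slc22a18 among the 7. The same held for Mkrn3, Snrpn, Zdbf2 and Peg13 among the 5, and for the urethral stage calls of Meg3, Slc22a18, Asb4 and Peg10.

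Among the growth genes, Igf2, which encodes a fetal growth factor, had 83.2, 80.7 and 70.0 CPM in E18.5 bladder, against 205, 301 and 246 CPM in E14.5 bladder. It had 67.8, 77.8 and 65.5 CPM in E18.5 urethra and 63.0, 92.4 and 84.2 CPM in E14.5 urethra. The E14.5 bladder libraries stood above all 9 others, which overlapped. Igf2 was 3.22-fold lower at the later stage in bladder (log2 -1.68 ± 0.17 SE, adjusted p = 1.7e-05), and 3.14-fold higher in bladder than in urethra at E14.5 (adjusted p = 8.76e-05). In urethra its stage difference was -0.18 ± 0.16 (adjusted p = 0.452), and the stage changes differed by -1.50 ± 0.23 (adjusted p = 0.00327). Of the 5723 exon bases of Igf2, 3596 (62.8%) are shared on the same strand with the predicted gene Gm49394, which was given 132 counts over all libraries, so the level of Igf2 is uncertain.

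H19, the maternally expressed noncoding RNA next to Igf2, was among the most abundant transcripts. It had 3355, 3125 and 2929 CPM in E18.5 bladder, against 4229, 3914 and 4264 CPM in E14.5 bladder. In urethra H19 had 2107, 2506 and 2264 CPM at E18.5, against 2105, 1720 and 1999 CPM at E14.5. Every bladder library lay above every urethral library. At E14.5 H19 was 2.13-fold higher in bladder than in urethra (log2 1.09 ± 0.13, adjusted p = 1.81e-04). At E18.5 H19 was 1.37-fold higher (adjusted p = 0.0135), and in bladder it fell at E18.5 by 0.40 on the log2 scale (adjusted p = 0.0204). The E18.5 compartment call ended without E18.5 urethra replicate 1 (0.39, adjusted p = 0.0731) or replicate 3 (0.44, adjusted p = 0.0517). The stage call ended without E18.5 bladder replicate 3 (-0.35, adjusted p = 0.0718), E14.5 bladder replicate 1 (-0.37, adjusted p = 0.0607) or E14.5 bladder replicate 3 (-0.38, adjusted p = 0.070). For H19 the difference of stage changes, -0.64 ± 0.18 (adjusted p = 0.0427), ended with the replicate block (adjusted p = 0.077) and without any 1 of 10 libraries, up to adjusted p = 0.125 without E18.5 urethra replicate 2.

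Igf2r, the receptor that takes IGF2 to the lysosome, followed the compartment and not the stage. It averaged 752 ± 160 CPM in E18.5 bladder, 745 ± 141 CPM in E14.5 bladder, 453 ± 47.2 CPM in E18.5 urethra and 412 ± 49.3 CPM in E14.5 urethra (SD, n = 3 each). It was 1.66-fold higher in bladder at E18.5 (adjusted p = 0.00638) and 1.81-fold higher at E14.5 (adjusted p = 0.00511), with no overlap between the compartments at either stage. Its stage differences were 0.01 ± 0.18 in bladder and 0.14 ± 0.18 in urethra, neither of them called.

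Mest, a paternally expressed gene for a membrane protein of the hydrolase fold, had 484, 493 and 414 CPM in E18.5 bladder, against 1069, 1350 and 1224 CPM in E14.5 bladder. In urethra Mest had 728, 842 and 681 CPM at E18.5, against 770, 673 and 827 CPM at E14.5. Bladder was thus the highest compartment at E14.5 and the lowest at E18.5, with no overlap at either stage. Mest was 2.62-fold lower at E18.5 in bladder (log2 -1.39 ± 0.14, adjusted p = 1.72e-05), and 0.99-fold in urethra (adjusted p = 0.959). The difference of these changes was -1.38 ± 0.19 (adjusted p = 0.00226). Of its exon bases, 23.1% lie opposite Copg2, and since the strand setting of the counting is not stated, reads of the pair may not be separated there.

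Grb10, an adaptor that restrains insulin and IGF receptor signalling, had 746, 670 and 607 CPM in E18.5 bladder, against 1197, 1565 and 1630 CPM in E14.5 bladder. In urethra Grb10 had 952, 902 and 814 CPM at E18.5, against 1111, 891 and 1110 CPM at E14.5. The E18.5 bladder libraries were the lowest of all 12 and the E14.5 bladder libraries the highest. Grb10 was 2.17-fold lower at E18.5 in bladder (log2 -1.12 ± 0.15, adjusted p = 1.06e-04). Its compartment difference at E14.5, 0.50 ± 0.15 (adjusted p = 0.0295), ended without E14.5 bladder replicate 2 (0.45, adjusted p = 0.0943) or 3 (0.41, adjusted p = 0.119), or E14.5 urethra replicate 2 (0.40, adjusted p = 0.0883) or 3 (0.55, adjusted p = 0.0558). The stage changes differed by -0.90 ± 0.21 (adjusted p = 0.0209), a call that ended without any 1 of 5 libraries, up to adjusted p = 0.0613 without E14.5 bladder replicate 3.

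Cdkn1c, the cyclin-dependent kinase inhibitor p57, lies in the Kcnq1ot1 cluster. It had 388, 447 and 460 CPM in E18.5 bladder, against 774, 571 and 776 CPM in E14.5 bladder. In urethra Cdkn1c had 794, 800 and 724 CPM at E18.5, against 709, 484 and 621 CPM at E14.5. It was 1.64-fold lower at E18.5 in bladder (log2 -0.71 ± 0.16, adjusted p = 0.00321), and its urethral difference was 0.35 ± 0.16 (adjusted p = 0.127). At E18.5 Cdkn1c was 1.79-fold lower in bladder than in urethra (adjusted p = 0.00145), and the libraries of the compartments did not overlap. The difference of stage changes was -1.06 ± 0.23 (adjusted p = 0.0133). Its exons lie opposite Gm44732 over 30.6% of their bases.

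**Figure D3:**
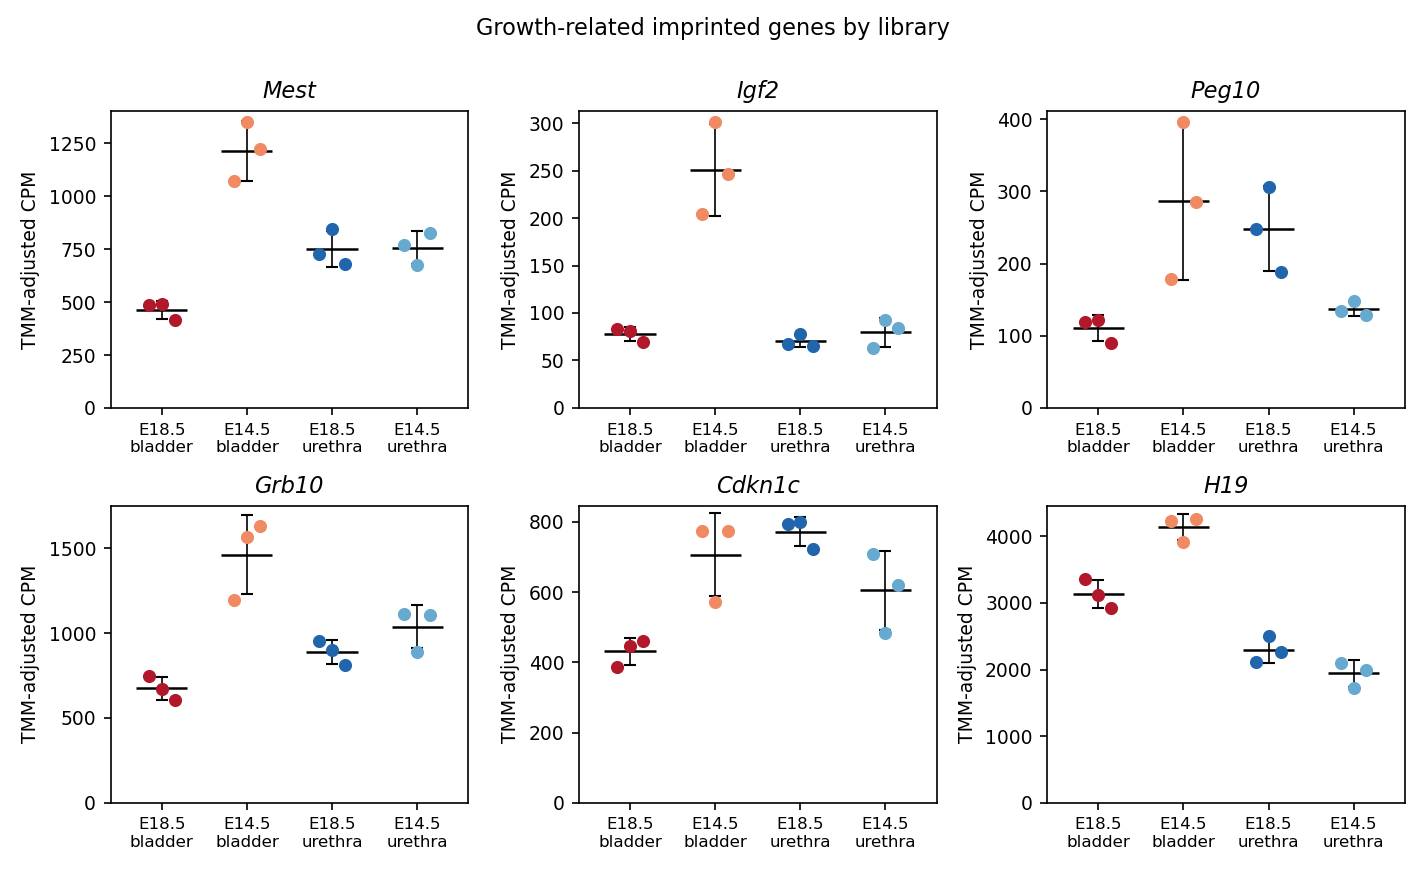
TMM-adjusted CPM of Mest, Igf2, Peg10, Grb10, Cdkn1c and H19 in each library (points), with the mean and SD of 3 libraries (lines), for E18.5 bladder, E14.5 bladder, E18.5 urethra and E14.5 urethra. In each panel E18.5 bladder lies under E14.5 bladder: Mest averages 463 and 1214 CPM there, and Igf2 77.9 and 251 CPM.

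Plagl1, a paternally expressed zinc finger transcription factor also called Zac1, had 819, 629 and 700 CPM in E18.5 bladder, against 736, 915 and 940 CPM in E14.5 bladder. In urethra Plagl1 had 455, 525 and 414 CPM at E18.5, against 303, 339 and 306 CPM at E14.5. All bladder libraries lay above all urethral ones. It was 2.73-fold higher in bladder at E14.5 (log2 1.45 ± 0.14, adjusted p = 8.1e-05) and 1.54-fold higher at E18.5 (adjusted p = 0.00436). The rise in urethra, 0.55 ± 0.14 (adjusted p = 0.0146), ended without E18.5 urethra replicate 2 (0.46, adjusted p = 0.073) and without E14.5 urethra replicate 3. For Plagl1 the difference of stage changes, -0.83 ± 0.20 (adjusted p = 0.0247), ended without any 1 of 7 libraries, up to adjusted p = 0.0718 without E18.5 urethra replicate 2.

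Markers of cell division and of smooth muscle also changed between stages. The 10 cell division markers summed to 1017 to 1276 CPM in E18.5 bladder, 1631 to 2212 CPM in E14.5 bladder, 794 to 921 CPM in E18.5 urethra and 1412 to 1639 CPM in E14.5 urethra, and 9 of the 10 were called lower at E18.5 in each compartment. Igf2, H19, Mest, Grb10 and Cdkn1c were called lower at E18.5 in bladder and not in urethra, where Plagl1 was called higher. The 10 smooth muscle markers summed to 23520 to 43500 CPM in E18.5 bladder, 6779 to 8869 CPM in E14.5 bladder, 2696 to 3026 CPM in E18.5 urethra and 1835 to 3865 CPM in E14.5 urethra, with 9 of 10 called higher at E18.5 in bladder. All of both lists had counts in every group. Their part in the changes of the imprinted genes was not tested.

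In the Dlk1-Dio3 cluster all 6 genes were called higher at E18.5 in urethra, where 13.6% of all genes were. In bladder 2, Meg3 and Rtl1, were called higher, where 23.7% of all genes were. The urethral calls of Meg3 and Dio3 each ended without any 1 of 4 libraries, and the bladder call of Meg3 without any 1 of 8. Dlk1, a transmembrane protein related to Notch ligands, had 1280, 1109 and 1082 CPM in E18.5 bladder, against 1064, 1067 and 1086 CPM in E14.5 bladder. In urethra Dlk1 had 610, 941 and 652 CPM at E18.5, against 256, 208 and 214 CPM at E14.5. Bladder libraries exceeded urethral ones throughout, and the urethral stages did not overlap. Dlk1 was 4.75-fold higher in bladder than in urethra at E14.5 (log2 2.25 ± 0.17, adjusted p = 2.09e-05), and 1.58-fold higher at E18.5 (adjusted p = 0.0068). It was 3.25-fold higher at E18.5 in urethra (adjusted p = 1.5e-04), and its bladder difference was 0.11 ± 0.16 (adjusted p = 0.603). The stage changes differed by -1.59 ± 0.23 (adjusted p = 0.00237).

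Rtl1, whose opposite strand carries the microRNAs shown above, had 38.1, 35.3 and 33.3 CPM in E18.5 bladder, against 22.2, 18.9 and 12.4 CPM in E14.5 bladder. In urethra Rtl1 had 14.8, 19.4 and 17.3 CPM at E18.5, against 3.48, 5.28 and 3.08 CPM at E14.5. No stage or compartment overlapped with its counterpart. Rtl1 was 2.00-fold higher at E18.5 in bladder (log2 1.00 ± 0.23, adjusted p = 0.00382) and 4.32-fold higher in urethra (adjusted p = 2.86e-04). It was 2.07-fold higher in bladder at E18.5 (adjusted p = 0.00353) and 4.48-fold higher at E14.5 (adjusted p = 1.49e-04). Per length, Dlk1 exceeded Rtl1 36.5-fold ± 1.22 in E18.5 bladder, 71.9-fold ± 23.2 in E14.5 bladder, 47.6-fold ± 6.2 in E18.5 urethra and 68.2-fold ± 20.9 in E14.5 urethra.

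Dio3, the deiodinase that inactivates thyroid hormone, was near the limit of detection. It had 6, 0 and 5 counts in E18.5 bladder, against 14, 9 and 6 counts in E14.5 bladder. In urethra Dio3 had 57, 39 and 54 counts at E18.5, against 16, 10 and 4 counts at E14.5. On the TMM-adjusted scale 3 counts correspond to 0.0761 to 0.161 CPM, depending on the library. The E18.5 urethra libraries stood above all 9 others, and Dio3 was 10.8-fold lower in bladder than in urethra at that stage (log2 -3.44 ± 0.69, adjusted p = 0.00194). Its rise in urethra, 2.19 ± 0.61 (adjusted p = 0.0218), ended without any 1 of 4 libraries, up to adjusted p = 0.0917 without E14.5 urethra replicate 3, and was 2.86 without E14.5 urethra replicate 1. For Dio3 the difference of stage changes, -3.77 ± 0.95 (adjusted p = 0.0297), ended without any 1 of 7 libraries, up to adjusted p = 0.0667 without E18.5 urethra replicate 3, and was -4.44 without E14.5 urethra replicate 1.

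The maternally expressed RNAs of the cluster, Meg3, Rian (a host of small nucleolar RNAs) and Mirg (a host of microRNAs), are noncoding. Meg3 had 551, 696 and 841 CPM in E18.5 bladder, against 359, 177 and 158 CPM in E14.5 bladder. In urethra Meg3 had 1006, 1279 and 1073 CPM at E18.5, against 135, 540 and 107 CPM at E14.5, where replicate 2 stood far above the others. It was 3.01-fold higher at E18.5 in bladder (log2 1.59 ± 0.55, adjusted p = 0.0359) and 4.29-fold higher in urethra (log2 2.10 ± 0.56, adjusted p = 0.0206). Without E14.5 urethra replicate 2 the urethral difference was 3.21 (adjusted p = 0.00106). The bladder value was 1.59 without it too (adjusted p = 0.00132), and the difference of stage changes, -0.51 (adjusted p = 0.73), was called without it (-1.62, adjusted p = 0.0456). The bladder call ended without any 1 of 8 libraries, up to adjusted p = 0.114 without E14.5 bladder replicate 2, and with no low-count filter (adjusted p = 0.109). The urethral call ended without E18.5 urethra replicate 2 (2.00, adjusted p = 0.0647) or 3 (2.13, adjusted p = 0.0506), or E14.5 urethra replicate 1 (1.79, adjusted p = 0.0607) or 3 (1.73, adjusted p = 0.0678), and with no low-count filter (adjusted p = 0.0716).

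Rian had 294, 444 and 401 CPM in E18.5 bladder, against 324, 241 and 262 CPM in E14.5 bladder. In urethra Rian had 532, 654 and 540 CPM at E18.5, against 150, 300 and 128 CPM at E14.5. It was 2.98-fold higher at E18.5 in urethra (log2 1.58 ± 0.28, adjusted p = 0.0026), while the bladder stages overlapped (0.46 ± 0.28, adjusted p = 0.193). Without E14.5 urethra replicate 2 the urethral difference was 2.05 (adjusted p = 7.14e-04), and 4 further differences were called: bladder over urethra at E18.5 (-0.60, adjusted p = 0.0153) and at E14.5 (0.99, adjusted p = 0.00544), the bladder stage difference (0.46, adjusted p = 0.0417) and the difference of stage changes (-1.59, adjusted p = 0.00549).

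Mirg had 15.8, 19.8 and 17.9 CPM in E18.5 bladder, against 20.2, 15.1 and 14.8 CPM in E14.5 bladder. In urethra Mirg had 35.1, 42.7 and 29.1 CPM at E18.5, against 6.28, 18.7 and 6.35 CPM at E14.5. The highest E14.5 urethra value was again that of replicate 2. Mirg was 3.39-fold higher at E18.5 in urethra (log2 1.76 ± 0.36, adjusted p = 0.00537), and 2.49 on the log2 scale without E14.5 urethra replicate 2. Without that library Mirg was also called higher in bladder than in urethra at E14.5 (1.40, adjusted p = 0.00129), and its difference of stage changes was called (-2.40, adjusted p = 0.00185). At E18.5 Mirg was 2.00-fold lower in bladder than in urethra (adjusted p = 0.0459), a call that ended without any 1 of 8 libraries, up to adjusted p = 0.14 without E18.5 urethra replicate 2, and was -1.0 (adjusted p = 9.93e-04) without E14.5 urethra replicate 2.

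Per length, Meg3 stood at 0.191 ± 0.054 of the Dlk1 level in E18.5 bladder and 0.068 ± 0.033 in E14.5 bladder. In urethra the ratio was 0.516, 0.425 and 0.515 at E18.5, and 0.165, 0.812 and 0.156 at E14.5. These ratios were not tested. Skeletal muscle markers, listed because Dlk1 and its neighbours are also active in fetal muscle, summed to 3062 to 4905 CPM in E18.5 bladder, 18.8 to 277 CPM in E14.5 bladder, 861 to 1292 CPM in E18.5 urethra and 11.2 to 152 CPM in E14.5 urethra. Against E14.5, all 12 were called higher at E18.5 in urethra and 5 in bladder. The sums hide members that differ in direction between compartments. At E18.5, 7 (Mybph, Myog, Pax7, Myod1, Myf5, Myh3 and Actn2) were called lower in bladder than in urethra. Ckm, Tnnt3 and Acta1 were called higher, and the median over the 12 was -6.11. Pax7 had 0 counts in E14.5 bladder, and the part of these markers in the cluster's changes was not tested.

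**Figure D4:**
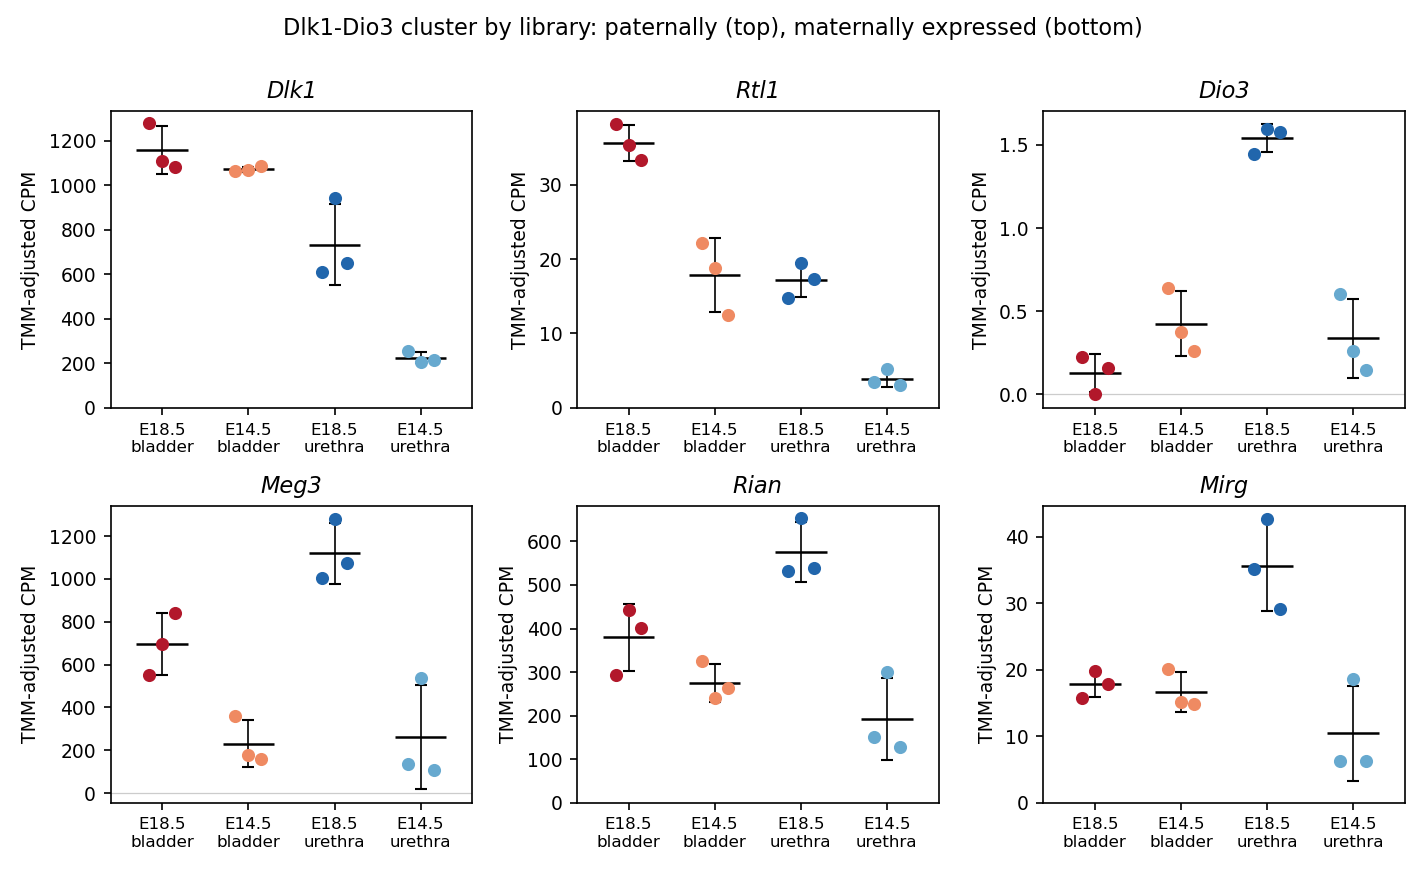
TMM-adjusted CPM of the 6 Dlk1-Dio3 genes in each library (points), with the mean and SD of 3 libraries (lines), for E18.5 bladder, E14.5 bladder, E18.5 urethra and E14.5 urethra. Dlk1 and Rtl1 are lowest in E14.5 urethra (226 and 3.95 CPM), and the high E14.5 urethra point of Meg3, Rian and Mirg is replicate 2.

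The Peg10 cluster split by gene. Peg10, derived from a retrotransposon and required for the placenta, had 119, 122 and 89.6 CPM in E18.5 bladder, against 178, 396 and 285 CPM in E14.5 bladder. In urethra Peg10 had 248, 307 and 189 CPM at E18.5, against 135, 148 and 128 CPM at E14.5. At neither stage did the compartments overlap, and their order was reversed between stages. Peg10 was 2.60-fold lower at E18.5 in bladder (log2 -1.38 ± 0.26, adjusted p = 0.00101) and 1.81-fold higher in urethra (0.85 ± 0.25, adjusted p = 0.0291). The urethral call ended without any 1 of 5 libraries, up to adjusted p = 0.117 without E18.5 urethra replicate 2, and with no low-count filter (adjusted p = 0.0598). The stage changes differed by -2.23 ± 0.36 (adjusted p = 0.00413). At E18.5 Peg10 was 2.25-fold lower in bladder (adjusted p = 0.00357), and at E14.5 2.09-fold higher (adjusted p = 0.011).

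Asb4, a maternally expressed subunit of a ubiquitin ligase, had the largest called stage difference of the 35 in bladder. Its libraries gave 8.26, 11.1 and 9.63 CPM in E18.5 bladder, against 50.1, 211 and 188 CPM in E14.5 bladder. In urethra Asb4 had 4.21, 4.67 and 4.33 CPM at E18.5, against 8.28, 33.1 and 13 CPM at E14.5. Both compartments were lower at E18.5 without overlap, and replicate 1 was the lowest of the E14.5 libraries in each. It was 15.5-fold lower at E18.5 in bladder (log2 -3.96 ± 0.60, adjusted p = 3.73e-04). At E14.5 it was 8.21-fold higher in bladder (3.04 ± 0.57, adjusted p = 0.00389), and 3.81 without E14.5 urethra replicate 2. The fall in urethra, -2.05 ± 0.57 (adjusted p = 0.0247), ended without E14.5 urethra replicate 2 (-1.28, adjusted p = 0.101), without any 1 of the 3 E18.5 urethra libraries, and with no low-count filter (adjusted p = 0.0849). At E18.5 the compartment difference of 1.13 ± 0.57 (adjusted p = 0.155) was called with the replicate block (1.12, adjusted p = 0.00706).

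Sgce, the paternally expressed gene for epsilon-sarcoglycan that starts next to Peg10, averaged 58.4 ± 5.16 CPM in E18.5 bladder, 64.3 ± 10.7 CPM in E14.5 bladder, 54.9 ± 1.77 CPM in E18.5 urethra and 40.4 ± 11.6 CPM in E14.5 urethra. It was 1.59-fold higher in bladder at E14.5 (adjusted p = 0.0189) although the libraries overlapped, and the call ended without any 1 of 4 libraries, up to adjusted p = 0.0795 without E14.5 bladder replicate 3. Per length, Peg10 exceeded Sgce 2.99-fold ± 0.31 in E18.5 bladder, 6.99-fold ± 2.04 in E14.5 bladder, 7.17-fold ± 1.58 in E18.5 urethra and 5.73-fold ± 1.86 in E14.5 urethra. Ppp1r9a, which encodes the actin-binding protein neurabin, averaged 62.0 ± 8.24 CPM in E18.5 bladder, 57.4 ± 1.58 CPM in E14.5 bladder, 82.7 ± 9.02 CPM in E18.5 urethra and 62.3 ± 20.1 CPM in E14.5 urethra, and was called in no comparison. Without E14.5 urethra replicate 2, Ppp1r9a was called lower in bladder at E18.5 (-0.42, adjusted p = 0.0309) and higher at E18.5 in urethra (0.68, adjusted p = 0.012).

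In the Peg3 cluster, the printed gap lies between Usp29 and Peg3. Usp29, a gene of the ubiquitin-specific protease family, had 5.57, 6.87 and 6.02 CPM in E18.5 bladder, against 12.9, 10.4 and 13.6 CPM in E14.5 bladder. In urethra Usp29 had 14.4, 20.2 and 16.6 CPM at E18.5, against 12.6, 15.0 and 15.9 CPM at E14.5. The E18.5 bladder libraries were the lowest of all 12. Usp29 was 2.00-fold lower at E18.5 in bladder (log2 -1.0 ± 0.19, adjusted p = 0.00104) and 2.77-fold lower in bladder than in urethra at E18.5 (adjusted p = 1.00e-04). The stage changes differed by -1.24 ± 0.26 (adjusted p = 0.0136).

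Peg3, a zinc finger protein read in the other direction, averaged 592 ± 67.5 CPM in E18.5 bladder, 699 ± 54.5 CPM in E14.5 bladder, 452 ± 37.6 CPM in E18.5 urethra and 388 ± 71.2 CPM in E14.5 urethra. It was 1.80-fold higher in bladder at E14.5 (log2 0.85 ± 0.15, adjusted p = 0.00194). At E18.5 the difference was 0.39 ± 0.15 (adjusted p = 0.0597), called with the replicate block (adjusted p = 0.0392). Its stage differences, -0.24 ± 0.15 in bladder and 0.22 ± 0.15 in urethra, were not called. At E18.5 the compartment differences of Peg3 and Usp29 thus had opposite signs; the difference between the genes was not tested.

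Zim1, the maternally expressed zinc finger gene of this cluster, had 100, 128 and 92.7 CPM in E18.5 bladder, against 50.5, 19.4 and 26.4 CPM in E14.5 bladder. In urethra Zim1 had 72.0, 79.4 and 68.5 CPM at E18.5, against 18.1, 33.4 and 20.3 CPM at E14.5. Both compartments were higher at E18.5 with no overlap. The rise was 3.33-fold in bladder (log2 1.74 ± 0.32, adjusted p = 0.00119) and 3.05-fold in urethra (1.61 ± 0.32, adjusted p = 0.00519). Per length, Peg3 exceeded Zim1 3.33-fold ± 0.52 in E18.5 bladder, 15.2-fold ± 6.8 in E14.5 bladder, 3.67-fold ± 0.30 in E18.5 urethra and 10.1-fold ± 2.71 in E14.5 urethra.

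The other genes of the Kcnq1ot1 cluster were of low abundance. Phlda2, which restrains growth of the placenta, had 1.2, 2.47 and 1.98 CPM in E18.5 bladder, against 4.98, 12.8 and 14.5 CPM in E14.5 bladder. In urethra Phlda2 had 0.66, 0.82 and 0.41 CPM at E18.5, against 0.756, 2.07 and 0.734 CPM at E14.5. E14.5 bladder stood above all other groups. Phlda2 was 5.76-fold lower at E18.5 in bladder (log2 -2.53 ± 0.50, adjusted p = 0.00142) and 8.91-fold higher in bladder than in urethra at E14.5 (3.16 ± 0.51, adjusted p = 0.00127), or 3.85 without E14.5 urethra replicate 2. At E18.5 Phlda2 was 2.99-fold higher in bladder (adjusted p = 0.0347), a call that ended without any 1 of 4 libraries, up to adjusted p = 0.123 without E18.5 urethra replicate 3.

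Slc22a18, a transporter gene, was higher at E18.5 in both compartments, at 9.37 ± 2.33 CPM in E18.5 bladder, 3.26 ± 1.11 CPM in E14.5 bladder, 4.24 ± 0.16 CPM in E18.5 urethra and 1.69 ± 0.53 CPM in E14.5 urethra. The folds were 2.88 in bladder (adjusted p = 0.00175) and 2.51 in urethra (adjusted p = 0.0103), and the urethral call ended without E14.5 urethra replicate 3 (1.13, adjusted p = 0.0532). It was 2.21-fold higher in bladder at E18.5 (adjusted p = 0.011) and 1.94-fold higher at E14.5 (adjusted p = 0.0465). The E14.5 call ended without any 1 of 9 libraries, up to adjusted p = 0.198 without E14.5 bladder replicate 2. Kcnq1ot1, the paternally expressed antisense RNA that silences this cluster in cis, had 17.3 ± 4.31 CPM in E18.5 bladder, 15.4 ± 7.96 CPM in E14.5 bladder, 28.8 ± 6.99 CPM in E18.5 urethra and 24.5 ± 16.1 CPM in E14.5 urethra, and was called in no comparison. At E18.5 its compartments did not overlap, and a fit of only those libraries called it lower in bladder (-0.80, adjusted p = 0.0206). At E14.5 it was called lower in bladder without both replicate 1 libraries (-1.40, adjusted p = 0.0357). That fit keeps the high E14.5 urethra replicate 2.

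The paternally expressed genes of the Snrpn-Ube3a cluster, the region whose loss underlies Prader-Willi syndrome in humans, were all lower in bladder than in urethra at E18.5. Ndn, a MAGE family protein abundant in neurons, had 96.0, 111 and 93.6 CPM in E18.5 bladder, against 202, 176 and 230 CPM in E14.5 bladder. In urethra Ndn had 169, 202 and 181 CPM at E18.5, against 215, 160 and 192 CPM at E14.5. The E18.5 bladder libraries alone stood apart. Ndn was 2.02-fold lower at E18.5 in bladder (log2 -1.02 ± 0.14, adjusted p = 1.19e-04), and its urethral difference was -0.04 ± 0.14 (adjusted p = 0.863). At E18.5 Ndn was 1.84-fold lower in bladder than in urethra (adjusted p = 3.97e-04), and the stage changes differed by -0.98 ± 0.20 (adjusted p = 0.00999).

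Snrpn, which encodes a splicing protein, had 7.51, 9.06 and 12 CPM in E18.5 bladder, against 12.1, 12.4 and 11.8 CPM in E14.5 bladder. In urethra Snrpn had 19.3, 45.2 and 39.1 CPM at E18.5, against 31.5, 18.9 and 25.7 CPM at E14.5. It was 3.62-fold lower in bladder at E18.5 (log2 -1.85 ± 0.30, adjusted p = 4.32e-04) and 2.10-fold lower at E14.5 (adjusted p = 0.0195). The E14.5 call ended without any 1 of 4 libraries, up to adjusted p = 0.0661 without E14.5 bladder replicate 3, and without both E14.5 replicate 1 libraries (adjusted p = 0.0799). Its exons share 27.3% of their bases on the same strand with Gm38393 and Snurf.

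Peg12, an intronless gene of the Frat family of GSK3-binding proteins, had 10.4, 12 and 7.94 CPM in E18.5 bladder, against 24.6, 36.4 and 34.8 CPM in E14.5 bladder. In urethra Peg12 had 23.1, 17.0 and 19.7 CPM at E18.5, against 39.7, 30.0 and 41.9 CPM at E14.5. The stages did not overlap in either compartment. Peg12 was 3.17-fold lower at E18.5 in bladder (log2 -1.67 ± 0.21, adjusted p = 7.00e-05) and 1.86-fold lower in urethra (adjusted p = 0.00802). At E18.5 Peg12 was 1.98-fold lower in bladder (adjusted p = 0.00261).

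Mkrn3, a RING finger protein known as a brake on puberty, had 2.02, 2.95 and 3.62 CPM in E18.5 bladder, against 6.72, 6.13 and 7.22 CPM in E14.5 bladder. In urethra Mkrn3 had 8.63, 10.1 and 10.9 CPM at E18.5, against 10.4, 11.3 and 9.77 CPM at E14.5. It was 3.45-fold lower in bladder than in urethra at E18.5 (log2 -1.79 ± 0.23, adjusted p = 1.01e-04) and 2.33-fold lower at E18.5 than at E14.5 in bladder (adjusted p = 0.00101). The E14.5 compartment difference, -0.65 ± 0.22 (adjusted p = 0.0493), ended without any 1 of 10 libraries, up to adjusted p = 0.141 without E14.5 bladder replicate 2. For Mkrn3 the difference of stage changes, -1.14 ± 0.32 (adjusted p = 0.0439), ended without any 1 of 11, up to adjusted p = 0.111 without E18.5 urethra replicate 3.

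Magel2, a second MAGE family gene, averaged 2.30 ± 1.02 CPM in E18.5 bladder, 4.53 ± 0.43 CPM in E14.5 bladder, 8.24 ± 0.83 CPM in E18.5 urethra and 7.83 ± 2.86 CPM in E14.5 urethra. It was 3.61-fold lower in bladder than in urethra at E18.5 (adjusted p = 0.0011). Its fall in bladder, -0.99 ± 0.34 (adjusted p = 0.0302), ended without any 1 of 5 libraries, up to adjusted p = 0.11 without E18.5 bladder replicate 1. Ube3a, the maternally expressed gene of the cluster, averaged 132 ± 15.8 CPM in E18.5 bladder, 154 ± 15.1 CPM in E14.5 bladder, 140 ± 18 CPM in E18.5 urethra and 147 ± 19.1 CPM in E14.5 urethra. It was called in no comparison, with log2 differences between -0.22 and 0.06 in the stage and compartment comparisons, and 27.3% of its exon bases lie opposite other genes, Snhg14 among them.

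Nnat, Zdbf2, Nap1l5 and Peg13, paternally expressed genes elsewhere, are described next because they showed the same order of compartments. Nnat, a small endoplasmic reticulum protein abundant in the developing brain, had 53.2, 62.9 and 89.7 CPM in E18.5 bladder, against 258, 168 and 246 CPM in E14.5 bladder. In urethra Nnat had 256, 304 and 312 CPM at E18.5, against 420, 418 and 435 CPM at E14.5. All E18.5 bladder libraries were under all others. Nnat was 4.23-fold lower in bladder than in urethra at E18.5 (log2 -2.08 ± 0.20, adjusted p = 1.41e-05) and 1.89-fold lower at E14.5 (adjusted p = 0.00557). It was 3.27-fold lower at E18.5 in bladder (adjusted p = 4.34e-05), and its urethral difference was -0.55 ± 0.19 (adjusted p = 0.0571). For Nnat the difference of stage changes, -1.16 ± 0.27 (adjusted p = 0.0217), ended without any 1 of 4 libraries, up to adjusted p = 0.0586 without E14.5 bladder replicate 3.

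Zdbf2, a zinc finger gene, had 18.7, 17.3 and 14.9 CPM in E18.5 bladder, against 41.1, 34.8 and 39.4 CPM in E14.5 bladder. In urethra Zdbf2 had 75.3, 58.8 and 45.0 CPM at E18.5, against 48.3, 60.1 and 71.4 CPM at E14.5. It was 3.52-fold lower in bladder at E18.5 (log2 -1.81 ± 0.19, adjusted p = 2.6e-05) and 2.26-fold lower at E18.5 than at E14.5 in bladder (adjusted p = 3.71e-04). The E14.5 compartment difference, -0.64 ± 0.19 (adjusted p = 0.0266), ended without any 1 of 4 libraries, up to adjusted p = 0.106 without E14.5 urethra replicate 3. The stage changes differed by -1.17 ± 0.27 (adjusted p = 0.018).

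Nap1l5, of the nucleosome assembly protein family, had 1.46, 2.68 and 1.73 CPM in E18.5 bladder, against 2.70, 2.65 and 3.16 CPM in E14.5 bladder. In urethra Nap1l5 had 6.39, 22.7 and 17.5 CPM at E18.5, against 8.36, 4.68 and 4.88 CPM at E14.5. It was 7.98-fold lower in bladder at E18.5 (log2 -3.00 ± 0.44, adjusted p = 2.44e-04). Its urethral rise, 1.38 ± 0.41 (adjusted p = 0.0275), came with overlapping stages and ended without any 1 of 4 libraries, up to adjusted p = 0.132 without E18.5 urethra replicate 2.

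Peg13, a noncoding RNA, was higher and not lower at the later stage in bladder. It had 51.6, 45.6 and 39.7 CPM in E18.5 bladder, against 36.3, 26.3 and 25.2 CPM in E14.5 bladder. In urethra Peg13 had 58.7, 77.0 and 71.5 CPM at E18.5, against 68.6, 54.6 and 64.0 CPM at E14.5. It was 1.56-fold higher at E18.5 in bladder (adjusted p = 0.00732), and 2.13-fold lower in bladder than in urethra at E14.5 (log2 -1.09 ± 0.17, adjusted p = 8.49e-04). The E18.5 compartment difference, -0.60 ± 0.16 (adjusted p = 0.013), ended without E18.5 bladder replicate 3 (-0.50, adjusted p = 0.0595) or E18.5 urethra replicate 2.

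Neuron markers were higher in urethra: all 10 were called lower in bladder at E18.5 and 9 at E14.5, and the summed levels are those given above. The paternally expressed genes from Ndn to Peg13 were all called lower in bladder at E18.5. Nnat, Zdbf2, Nap1l5 and Peg13 were placed in this group for that order, so the shared call is no separate result. Of all 21 paternally expressed genes, 13 were called lower there, 3 higher (Plagl1, Dlk1 and Rtl1) and 5 not called. At E14.5 only Mkrn3, Snrpn, Nnat, Zdbf2 and Peg13 were called lower in bladder. Magel2, Peg12 and Nap1l5 were not called at E14.5, nor was Ndn, whose difference was 0.10 (adjusted p = 0.63). Within E18.5 urethra, replicate 1 had the lowest neuron marker sum (718 CPM, against 1893 and 1606 CPM in replicates 2 and 3). Of the 9 paternally expressed genes from Ndn to Peg13 above, 6 (Ndn, Mkrn3, Snrpn, Nnat, Nap1l5 and Peg13) were lowest in that library and 3 (Magel2, Peg12 and Zdbf2) highest. Between stages in bladder all 10 neuron markers were negative (median -1.05) and 2 were called lower at E18.5; in urethra all 10 were positive (median 0.68) and 1 was called higher. The part of neurons in the compartment differences was not tested.

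**Figure D5:**
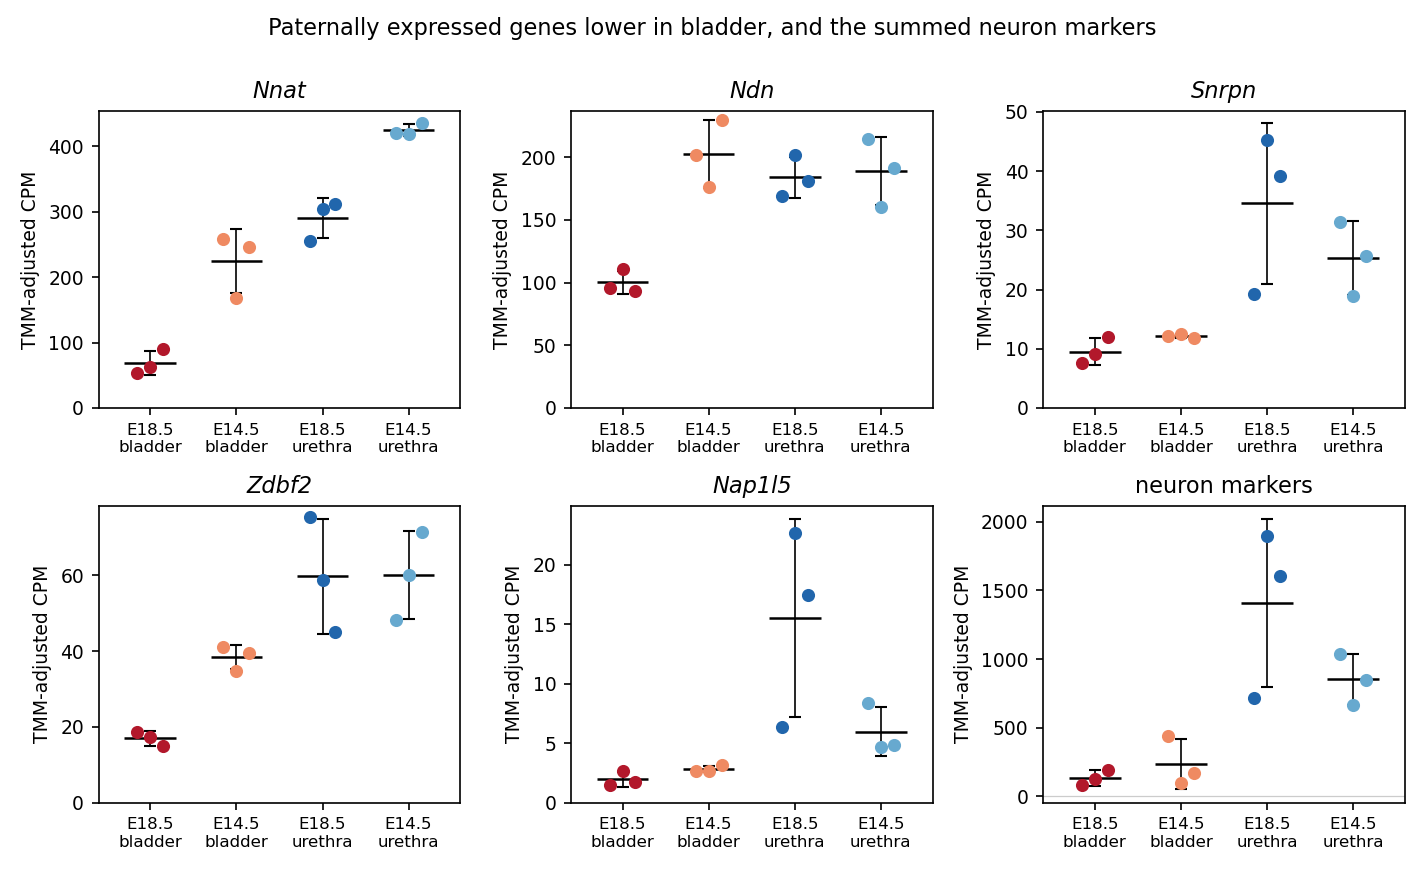
TMM-adjusted CPM of Nnat, Ndn, Snrpn, Zdbf2 and Nap1l5 and the sum of 10 neuron markers in each library (points), with the mean and SD of 3 libraries (lines), for E18.5 bladder, E14.5 bladder, E18.5 urethra and E14.5 urethra. In every gene panel E18.5 bladder is the lowest group: Nnat averages 68.6 CPM there, against 224 CPM in E14.5 bladder, and 291 CPM in E18.5 urethra.

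Of the remaining genes, Impact, a regulator of the kinase GCN2, averaged 42.8 ± 3.73 CPM in E18.5 bladder, 59.6 ± 7.5 CPM in E14.5 bladder, 47.9 ± 3.38 CPM in E18.5 urethra and 60.3 ± 7.52 CPM in E14.5 urethra. It was 1.39-fold lower at E18.5 in bladder (adjusted p = 0.010), and its urethral difference was -0.33 ± 0.13 (adjusted p = 0.0804). Gnas, the gene of the stimulatory G protein alpha subunit, averaged 1821 ± 148 CPM in E18.5 bladder, 1647 ± 81.9 CPM in E14.5 bladder, 1806 ± 296 CPM in E18.5 urethra and 1391 ± 300 CPM in E14.5 urethra, and was called in no comparison. Its row sums transcripts of differing imprints, which these counts cannot separate, and 21.6% of its exon bases lie opposite other genes.

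A further list of 45 imprinted genes, 39 of them tested, showed compartment and stage differences in both directions. In bladder at E18.5 against E14.5, 10 were lower and 8 higher (25.6% and 20.5% of the 39), where 22% and 23.7% of all genes were. The median was 0.11, against -0.02 over all genes. In urethra 4 were lower and 11 higher (10.3% and 28.2%), where 10.8% and 13.6% of all genes were. The median there was 0.18, against -0.06 over all genes. The difference of stage changes was negative for 21 of the 39 and positive for 18, with a median of -0.04 against 0.02 over all genes. It was called lower for 4 (Calcr, Igf2os, Klf14 and Ddc) and higher for 0 by edgeR, where 4.03% and 4.64% of all genes were. At an unadjusted p under 0.05 edgeR gave 7 lower and 5 higher, and DESeq2 called 5 lower and 2 higher. Klf14, a transcription factor gene near Mest, had 5.46, 5.52 and 5.44 CPM in E18.5 bladder, against 13.7, 17.4 and 15.3 CPM in E14.5 bladder, and 6.27, 11 and 8.30 CPM in E18.5 urethra, against 5.07, 4.95 and 3.85 CPM in E14.5 urethra. Its stage changes differed by -2.38 ± 0.32 (adjusted p = 0.00184), and it is named, like Igf2os and Ddc, after its values were seen.

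By size, Calcr, the calcitonin receptor gene in the Peg10 region, fell by 3.52 on the log2 scale at E18.5 in bladder (adjusted p = 0.00173) and rose by 2.54 in urethra (adjusted p = 0.0237); its levels were under 3 CPM in every library. Its compartment differences were -2.27 at E18.5 (adjusted p = 0.0285) and 3.80 at E14.5 (adjusted p = 0.00299). Kcnk9, a potassium channel gene beside Peg13, was lower in bladder at E18.5 (-4.70 ± 0.60, adjusted p = 1.08e-04), and fell in bladder at E18.5 by 2.45 (adjusted p = 0.00532). Slc22a3, an organic cation transporter gene, and Dlx5, a homeobox gene, were lower in bladder at E14.5, by log2 differences of -3.01 (adjusted p = 9.86e-04) and -2.69 (adjusted p = 0.022). Atp10a, a lipid flippase gene, was 2.05 higher in bladder at E18.5 (adjusted p = 2.01e-05). Rasgrf1, a Ras exchange factor gene, rose by 1.9 at E18.5 in bladder (adjusted p = 0.00121). In urethra Dlx5 fell by 2.27 at E18.5 (adjusted p = 0.0374) and Dcn, the proteoglycan decorin, rose by 1.45 (adjusted p = 0.00783).

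Among genes that set or keep imprints, calls between stages were more often lower than higher. Of 16 tested of 18 listed, 9 were lower and 2 higher at E18.5 in bladder, with a median of -0.37, and 6 were lower and 0 higher in urethra, with a median of -0.38 (edgeR, also 0 higher at an unadjusted p under 0.05 and 0 by DESeq2). Of all genes 22% were lower in bladder and 10.8% in urethra. Uhrf1, which brings the maintenance methyltransferase to replicated DNA, fell by 1.10 on the log2 scale in bladder (adjusted p = 3.35e-04) and by 0.81 in urethra (adjusted p = 0.00622). Dnmt1, that methyltransferase, fell by 0.60 in urethra (adjusted p = 0.0126), as did Trim28, the corepressor that protects imprints, by 0.58 (adjusted p = 0.0108). Dnmt3b, a de novo methyltransferase, fell by 0.88 in bladder (adjusted p = 0.00537), where Dnmt3l, its cofactor, rose by 1.24 (adjusted p = 0.0421). Dnmt3l was also higher in bladder than in urethra, by 3.65 at E18.5 (adjusted p = 1.87e-04) and 2.88 at E14.5 (adjusted p = 0.00259). At E14.5 Zfp445, a zinc finger protein that protects imprints, was lower in bladder by a log2 difference of -0.62 (adjusted p = 0.0155). At E18.5 Arid4a, a chromatin protein, was 0.51 higher in bladder (adjusted p = 0.00485) and Dnmt3a, a de novo methyltransferase, was lower there (-0.50, adjusted p = 0.0261). The fall of the division markers given above coincided with that of Uhrf1 and Dnmt1, and its part was not tested.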

How the data were processed

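Per the labels' protocols, cold trypsin loosened the tissue, mesenchyme was parted from epithelium, and a library held poly(A) RNA of the pooled female embryos of 1 litter. Of the upstream software, bcl2fastq, HISAT2 2.2.1 and SAMtools 1.9 are listed, with the build GRCm38, per the submitters' processing notes. How reads were counted, with which strand setting and annotation, is not given in the sources used here. Each stage has a deposited table of raw gene counts for 6 libraries, with no scaling by the authors. Overlaps between genes were computed from the exon coordinates in these tables. Total counts were 21495169 to 36349777 per library, so 3 counts, the smallest number read as a level, are 0.0761 to 0.161 CPM on the TMM-adjusted scale, which covers counting error only.

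The members and all gene lists were chosen with earlier results of these data known. The filterByExpr rule with a minimum count of 10 kept 18805 genes. These were TMM-scaled and tested with edgeR 4.0.16 (robust quasi-likelihood F tests, R 4.3.3) in 1 model of 4 group means over 12 libraries with 8 residual degrees of freedom. Benjamini-Hochberg adjustment ran over all genes within a comparison, with 0.05 as the threshold. SE is the size of the log2 difference divided by the square root of F. CPM per kb uses the deposited exon length. Library values are printed for genes with a call of at least 1 on the log2 scale and 10 CPM in the highest group, and all others by mean ± SD. Of the 2 further lists, the 3 largest called changes per stage and compartment comparison are named.

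Alternatives were DESeq2 1.42.0, median-ratio size factors, no filter, a stricter filter, only the libraries compared, the replicate block, and each library left out in turn. Both E14.5 replicate 1 libraries were also left out together, because earlier results of these data showed them to stand apart. Bladder and urethra of a stage share replicate numbers. Deviations of same-numbered libraries from their group means correlated at 0.197, 0.193 and 0.286 at E18.5, so the numbers were taken to pair those samples. At E14.5 they correlated at 0.192, -0.028 and 0.206, which left the pairing there undecided. The main values at both stages come from the model without the block, which was used as an alternative only. Scripts were tested on simulated data. Promoter and microRNA sequences are from RefSeq tables on GRCm38.p6.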

Additional observations from a re-analysis of the deposited data

Results flagged for a closer look

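For 14 genes the change from E14.5 to E18.5 in bladder differed from that in urethra by a test of the difference itself (edgeR's quasi-likelihood interaction, adjusted p under 0.05, n = 3 libraries per group). The values are log2 changes in bladder minus log2 changes in urethra, and all are negative. The differences were -3.77 for Dio3, -2.23 for Peg10, -1.59 for Dlk1, -1.50 for Igf2 and -1.38 for Mest. They were -1.24 for Usp29, -1.17 for Zdbf2, -1.16 for Nnat, -1.14 for Mkrn3 and -1.06 for Cdkn1c. The smallest were -0.98 for Ndn, -0.90 for Grb10, -0.83 for Plagl1 and -0.64 for H19. In Peg10 the bladder change was -1.38 and the urethral change 0.85, each called on its own. For Dlk1, Plagl1 and Dio3 the urethral change was called and the bladder change was not. For the other 10, the bladder change was called and the urethral change was not.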

How the results depend on the processing

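Of 89 called differences of the 35 genes, 63 kept their call under each of the 19 alternatives in which they were refitted, 26 lost it under at least 1, and 0 changed sign. With no low-count filter, which tests more genes, 1 gene in place of 2 was lower at E18.5 in urethra. Leaving out 1 library at a time, the genes lower in bladder at E14.5 numbered 2 to 5 (2 without E14.5 bladder replicate 2, E14.5 bladder replicate 3 or E14.5 urethra replicate 3, and 3 without E14.5 urethra replicate 2), those higher at E18.5 in urethra 5 to 11 (5 without E14.5 urethra replicate 3, 6 without E18.5 urethra replicate 2) and those lower there 1 to 3 (1 without any 1 E18.5 urethra library or E14.5 urethra replicate 2). Genes higher in bladder at E18.5 fell from 7 to 5 without E18.5 urethra replicate 1 or 3. They rose to 8 without E14.5 bladder replicate 1 or E14.5 urethra replicate 1. Those higher in bladder at E14.5 fell from 14 to 11 without E14.5 bladder replicate 2 or E14.5 urethra replicate 3. The stage changes differed downward for 8 to 16 genes (8 without E18.5 urethra replicate 2) and upward for 0 to 1 (1 without E14.5 bladder replicate 1). Without E14.5 urethra replicate 2, differences of stage changes were also called for Asb4 (-2.68, adjusted p = 0.0453) and Rtl1 (-1.39, adjusted p = 0.0187), and Grb10 was called lower in bladder at E18.5 (-0.40, adjusted p = 0.0373). With the replicate block, 9 genes were higher and 15 lower in bladder at E18.5, 14 higher and 6 lower at E14.5, and 17 had a lower and 0 a higher difference of stage changes. The shares without H19 were 0.75%, 1.04%, 1.03% and 0.757% of counts in E18.5 bladder, E14.5 bladder, E18.5 urethra and E14.5 urethra. Fits of only the libraries compared ended calls of H19 (E18.5 compartment and bladder stage), Grb10, Sgce, Mkrn3 and Slc22a18 (E14.5 compartment), Magel2 (bladder stage) and Nap1l5 (urethral stage), at adjusted p = 0.053 to 0.141. These fits also gained calls, at adjusted p = 0.00243 to 0.0484. At E18.5 Meg3, Rian, Kcnq1ot1, Ppp1r9a and Grb10 were called lower in bladder than in urethra, where 20 genes were lower in place of 15. Asb4 and Zim1 were called higher there, Nap1l5 lower in bladder at E14.5, and Nnat lower at E18.5 in urethra. Beside the calls named in the report, no low-count filter ended those of H19 and Mkrn3 (difference of stage changes), Mirg (E18.5 compartment), and Mkrn3 and Slc22a18 (E14.5 compartment), at adjusted p = 0.0587 to 0.102. It gained the difference of stage changes of Nap1l5 (-1.93, adjusted p = 0.048) and of Rtl1 (-1.12, adjusted p = 0.0365). Leaving out both E14.5 replicate 1 libraries ended calls of H19 (bladder stage and difference of stage changes) and Mkrn3 (E14.5 compartment and difference of stage changes), at adjusted p = 0.0538 to 0.101. That fit also gained calls, at adjusted p = 0.0023 to 0.0496. In bladder against urethra, Asb4, Peg3 and Zim1 were called higher and Grb10 and Ppp1r9a lower at E18.5, and Kcnq1ot1 lower at E14.5. In urethra Gnas and Sgce were called higher and Impact lower at E18.5. The differences of stage changes of Asb4, Nap1l5 and Sgce were called lower. Median-ratio scaling changed no direction of a called gene. Causes were not tested. At E14.5 the correlations of deviations left it undecided whether the replicate numbers pair the samples. A call moved by the block there is therefore not read as a weaker or stronger effect. Depth limits Dio3, which had 4 to 16 counts in the 6 E14.5 libraries.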
